A study of Mus musculus with 12 samples.

Results

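The transcriptional response to doxorubicin was described in wild-type (WT) mouse embryonic fibroblasts, by setting 3 doxorubicin-treated libraries against 3 mock-treated libraries of the same genotype. These 6 libraries are part of a series of 12, in which the other 6 come from fibroblasts lacking the long noncoding RNA lincRNA-p21. Of 11481 genes listed for either treatment, 10292 were listed for both and could be compared. Rows listed for 1 treatment only were described separately where their WT mean there was at least 10 CPM (reads of a gene per 1000000 reads of the library).

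The WT cells carried lincRNA-p21 on both alleles (lincRNA-p21+/+) and had a hybrid 129/B6 background. They were kept as primary cultures, so each library averages a mixed and finite-lived embryonic cell population. The treated cells received 0.5 mM doxorubicin, a dose unit given here as the labels state it, and were collected after 24 hours. Mock cells received no drug, and the knockout cells shared the background and the treatments. The series is described as a biological triplicate, but the labels do not say what a replicate number stands for, so p-values measure the spread between these libraries only.

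Doxorubicin is an anthracycline that traps topoisomerase II on DNA and leaves double-strand breaks. Breaks activate the kinases ATM and ATR, which stabilise the transcription factor p53, and p53 switches on genes of cell cycle arrest, apoptosis, DNA repair and its own negative feedback. Arrest acts in large part through p21, the product of Cdkn1a, which keeps the RB family active and so allows repressor complexes to shut down replication and mitosis genes. Fibroblasts are the main producers of collagen and other matrix proteins in connective tissue.

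WT library totals ran from 14327048 to 20511907 reads, of which 99.2 to 99.6% fell in listed genes. These are the totals over which the CPM were computed, and shares of reads below refer to them. Only 22 of the 10292 compared genes were matched to chromosome X, so genes of that chromosome are largely missing here. Both treatments share 1 scale, reads over the plain library total, so levels may be set side by side. The 10 highest genes took 10.2 to 11.0% of the reads in mock libraries and 6.59 to 7.73% after doxorubicin. Of 13 fibroblast markers 12 were measured in both treatments, with a summed level of 32951 to 40791 CPM in mock and 17637 to 19993 CPM after doxorubicin, and 5 of them fell. Markers of other cell types were listed in part. The neural list had 3 of 6 markers measured, all 3 above mock, and 0 of them passed. Their sum was 230 to 461 CPM in mock and 452 to 634 CPM after the drug. Cartilage and bone had 3 of 6 measured, of which 1 rose (sums of 57.5 to 78.8 and 82.7 to 140 CPM). Skeletal muscle had 2 of 6 measured, of which 1 rose (sums of 75.9 to 434 and 44.6 to 204 CPM). Of 8 blood markers 1 was measured, Cd68, at 29.2, 8.87 and 2.84 CPM in mock replicates 1 to 3 and at 126, 65.8 and 49.2 CPM after the drug. Of 7 epithelial markers 1 was measured, Krt18, summing to 4.11 to 7.97 CPM in mock and 6.07 to 21.7 CPM after doxorubicin. Of 7 endothelial markers 3 were measured, at a sum of 214 to 305 CPM in mock and 218 to 234 CPM after the drug. Kdr, the VEGF receptor gene and 1 of these 3, rose from 4.47, 4.16 and 3.70 CPM to 29.6, 30.8 and 30.1 CPM (log2 2.61). The lowest of the 3 was at log2 -0.55, with all treated libraries below all mock libraries, and did not pass. A further 1 of the 7 was listed in mock only. Of 5 adipocyte markers 2 were measured in both treatments and both rose, Cebpa by log2 3.77 and Fabp4 by 1.20. Their sum went from 5.67 to 12.6 CPM in mock to 59.6 to 116 CPM after the drug. Another 1 of the 5 was listed in mock only, and 2 were listed for neither treatment. The part of other cell types in the results below was not tested. In bulk RNA, fewer cells of a type and less RNA per cell cannot be told apart.

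Doxorubicin changed 4863 of the 10292 genes, 47.3% of those tested (limma on log2(CPM + 1), Benjamini-Hochberg adjusted p under 0.05). Of these, 2664 rose (25.9%) and 2199 fell (21.4%). A log2 difference of at least 1 in size was reached by 1091 of the risen genes and 639 of the fallen ones, and a difference of at least 2 by 242 and 86. The 3 treated libraries lay wholly above the 3 mock libraries for 3030 genes (29.4%) and wholly below them for 2606 (25.3%). Of the called genes, 4852 moved the same way in all 3 pairs of same-numbered libraries. The balance of rises and falls depended on the scale: centring each library on its median lowered every difference by about 0.11 and gave 2202 rises and 2944 falls, and quantile normalization gave 2308 and 2771. With the replicate number as a block, 6556 genes were called, 3459 higher and 3097 lower, including all 4863.

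**Figure D1:**
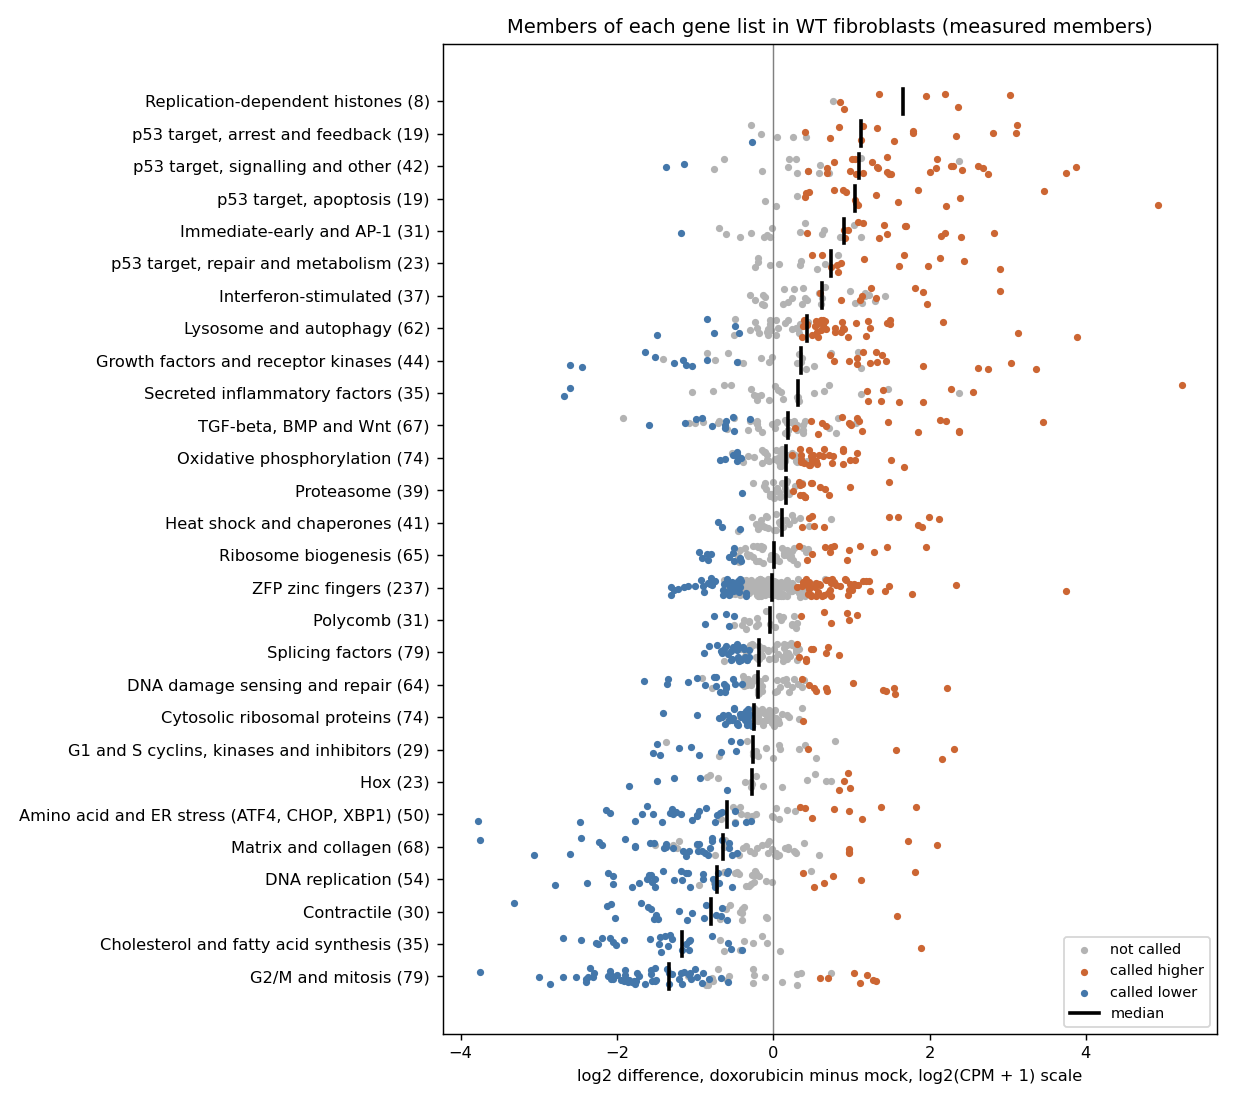
Log2 difference (doxorubicin minus mock, on the log2(CPM + 1) scale) of every measured member of 28 gene lists in WT fibroblasts, ordered by the list median (black bar), with the number measured in brackets. Points are genes, coloured by whether they were called higher, called lower or not called. The lists run from mitosis genes, with a median of -1.33, to histone genes, with a median of 1.66.

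Genes activated by p53 rose as a group. Over 4 lists of p53 targets, 102 genes were measured, of which 69 rose, 3 fell and 30 did not pass, with a median log2 difference of 0.99 against 0.01 over all genes tested. Cdkn1a was at 578, 506 and 613 CPM in the mock libraries and at 1440, 1091 and 1248 CPM after doxorubicin. All treated libraries lay above all mock libraries, a rise of log2 1.15 (SE 0.13, adjusted p = 6.93e-05). Mdm2, the ubiquitin ligase that degrades p53, went from 246, 275 and 235 CPM to 918, 753 and 953 CPM, and its groups did not overlap either (log2 1.79, SE 0.12, adjusted p = 6.24e-06). Trp53, which encodes p53 itself, rose from 127, 134 and 112 CPM to 252, 245 and 351 CPM (log2 1.17, SE 0.18, adjusted p = 0.000421).

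Promoter stretches of 4 of these genes are shown because each holds a match to the p53 half-site, the decamer of which p53 binds a tandem pair, within 250 bases before the start. Each match is in capitals, both strands were searched, and the sequences are those of RefSeq on GRCm38.p6. The stretches are Wrap53 (chr11:69580251-69580318, minus strand), Ppm1d (chr11:85311097-85311166, plus strand), Mdm2 (chr10:117710900-117710969, minus strand) and Cdkn1a (chr17:29090881-29090972, plus strand, with 2 matches). Each is written 5′ to 3′ on the strand of its gene.
Wrap53: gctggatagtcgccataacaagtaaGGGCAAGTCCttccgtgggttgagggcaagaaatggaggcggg
Ppm1d: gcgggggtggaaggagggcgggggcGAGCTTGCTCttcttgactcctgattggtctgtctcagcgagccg
Mdm2: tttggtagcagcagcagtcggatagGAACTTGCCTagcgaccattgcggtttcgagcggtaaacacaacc
Cdkn1a: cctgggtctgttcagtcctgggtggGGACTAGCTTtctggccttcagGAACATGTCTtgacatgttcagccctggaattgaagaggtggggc
Such a match stood in the promoters of 6 of the 12 risen arrest genes with a promoter in the table (50.0%) and of 12 of the 59 risen targets over the 4 lists (20.3%), against 471 of all 8086 promoters (5.82%). For Wrap53 and Cdkn1a the table lists 2 starts, of which the first was searched. A match is a description of the sequence and not a binding site.

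Among the arrest and feedback targets, 13 of 19 rose (68.4%, against 25.9% of all genes) and 1 fell, with a median of 1.13. Wrap53, a telomerase and Cajal body protein gene that lies next to Trp53 on the chromosome, rose from 9.28, 12.4 and 9.49 CPM to 74.6, 91.8 and 133 CPM (log2 3.12, SE 0.30, adjusted p = 3.14e-05). Its treated libraries were all several times above its mock libraries. Rprm (reprimo, an inhibitor of mitotic entry) rose by log2 3.11, from 3.04 ± 0.297 to 34.4 ± 7.60 CPM (SD, n = 3 each here and below). Zfp365, a zinc finger gene, rose by 2.34. Ppm1d, the phosphatase that switches off p53 signalling and is named here for its promoter, went from 13.2, 14.0 and 11.5 CPM to 37.1, 55.1 and 50.5 CPM (log2 1.79, adjusted p = 7.72e-05). Sfn, which encodes 14-3-3 sigma, rose by log2 2.81 (SE 0.70, adjusted p = 0.00671), with mock libraries that already ranged from 7.29 to 40.5 CPM. The exception was Rfwd2 (COP1, another ligase for p53), which fell by 0.27 on the log2 scale (adjusted p = 0.0311) and did not pass when mock replicate 1 or 2 or treated replicate 1 or 3 was left out (adjusted p = 0.0555, 0.123, 0.0750 and 0.0690). Gadd45a, a stress-response target, was at 37.2 CPM in mock and 38.5 CPM after doxorubicin and did not pass (log2 0.05, adjusted p = 0.858).

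Apoptosis targets had 16 of 19 members higher (84.2%) and 0 lower, with a median of 1.04. Perp, a tetraspan membrane protein gene, rose from 2.09, 4.51 and 22.9 CPM to 172, 203 and 319 CPM (log2 4.92, SE 0.60, adjusted p = 0.000111). The mock libraries spread widely, but the lowest treated library lay far above the highest of them. Fas, the death receptor gene, rose from 10.2, 6.01 and 14.7 CPM to 52.6, 44.9 and 70.4 CPM (log2 2.39, adjusted p = 0.000512). Pmaip1, which encodes Noxa, rose by log2 2.21 and Trp53i11 by 3.47. Bbc3, which encodes Puma, did not pass: its levels were 18.5, 15.4 and 24.4 CPM in mock and 19.99, 17.5 and 21.5 CPM after doxorubicin, so the groups overlapped (log2 0.03, adjusted p = 0.905).

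Of 23 measured targets in repair and metabolism 13 rose (56.5%) and 0 fell, with a median of 0.74. Fdxr, the ferredoxin reductase gene of mitochondria, went from 6.92 ± 0.848 to 43.5 ± 15.7 CPM (log2 2.44, adjusted p = 8.80e-05). Lpin1, a phosphatidate phosphatase gene, rose by 2.13 and Aldh4a1, of proline breakdown, by 1.98. Tap1, a peptide transporter of antigen presentation, rose by 2.90, and it overlaps the coding gene Psmb9 on the other strand, whose reads cannot be told apart here because the strand setting of the counting was not given. Of 42 further targets in signalling, 27 rose (64.3%) and 2 fell (33 and 4 with the replicate block). Pltp, a phospholipid transfer protein gene, rose by log2 3.74, Brunol5, an RNA-binding protein gene, by 3.87, Kitl, which encodes stem cell factor, by 2.75, and Crip2 by 2.68. Pltp overlaps Ctsa on the other strand. The 2 that fell were Hic1, a transcriptional repressor (76.3 ± 13.7 to 34.0 ± 5.19 CPM, log2 -1.14), and Thbs1, which encodes the matrix protein thrombospondin 1. Gdf15 and Phlda3 did not pass, with log2 differences of 0.71 and 0.19 (adjusted p = 0.142 and 0.199). With the replicate block Gdf15 passed (adjusted p = 0.0267).

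Most genes of G2 and mitosis fell. Of 79 measured members 55 fell (69.6%, against 21.4% of all genes), 7 rose and 17 did not pass, with a median log2 difference of -1.33. A further 29 members were listed in mock only. Top2a, the mitotic form of topoisomerase II and a protein that doxorubicin traps, went from 139, 210 and 146 CPM to 9.65, 26.6 and 5.07 CPM (log2 -3.75, SE 0.52, adjusted p = 0.000224). Even the highest treated library lay far below the lowest mock library. Racgap1, needed for cytokinesis, fell from 43.2, 63.6 and 47.0 CPM to 3.75, 9.26 and 4.45 CPM (log2 -3.00, adjusted p = 4.52e-05). Ube2c, the ubiquitin-conjugating enzyme of the anaphase-promoting complex, fell from 35.2, 50.0 and 31.0 CPM to 2.01, 12.9 and 2.67 CPM (log2 -2.86), and it overlaps Tnnc2 on the other strand. Ckap2l, a spindle protein gene, had means of 32.7 ± 5.78 CPM in mock and 5.75 ± 6.21 CPM after the drug (log2 -2.69).

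Treated replicate 2 kept more mitotic RNA than the other treated libraries. The summed level of the measured members was 4502, 5769 and 4631 CPM in mock and 2651, 3830 and 2799 CPM after doxorubicin, so replicate 2 was highest in both treatments. Mki67, a proliferation marker named here for its spread, was at 75.6, 119 and 102 CPM in mock and at 8.05, 54.4 and 14.5 CPM after the drug. Aurka was at 6.32 and 9.24 CPM in treated replicates 1 and 3 but at 56.6 CPM in replicate 2, above every mock library (28.5 to 43.5 CPM), and did not pass (adjusted p = 0.196). Ccna2, which encodes cyclin A2, and Ccnb1, which encodes cyclin B1, did not pass either, with log2 differences of -1.37 and -0.56 and adjusted p of 0.0826 and 0.215. With the replicate block Aurka and Ccna2 passed (adjusted p = 0.0351 and 0.00324), Aurka although its replicate 2 pair went the other way, and Ccnb1 did not (0.0554). By pair, the list median was -1.64, -0.85 and -1.56 for replicates 1 to 3. Without treated replicate 2, 59 members fell and 6 rose, and the median was -1.70. The members that rose included Spc25, a kinetochore gene (18.2, 22.4 and 17.1 CPM to 39.3, 46.6 and 64.9 CPM, log2 1.32), and the kinesin gene Kif18b (log2 1.27, adjusted p = 0.00780).

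Promoters of 5 fallen mitosis genes are shown because they hold TTTGAA, the core of the CHR element through which repressor complexes act on mitosis genes. The motif stands in capitals, and where it lies on the other strand it reads TTCAAA. The stretches are again RefSeq, GRCm38.p6, and come from Top2a (chr11:99024190-99024346, minus strand), Ube2c (chr2:164769875-164769928, plus strand), Ckap2l (chr2:129297213-129297267, minus strand), Kif2c (chr4:117178835-117178900, minus strand) and Ncapg (chr5:45669870-45669924, plus strand). A second match of Top2a lies upstream of its stretch. Except for Kif2c, each stretch runs up to the base before the start of its gene.
Ube2c: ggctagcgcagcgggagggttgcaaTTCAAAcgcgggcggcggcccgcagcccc
Ckap2l: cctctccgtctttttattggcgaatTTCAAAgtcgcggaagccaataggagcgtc
Ncapg: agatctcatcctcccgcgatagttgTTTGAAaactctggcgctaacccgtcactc
Kif2c: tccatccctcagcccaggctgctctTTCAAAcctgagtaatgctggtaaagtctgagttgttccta
Top2a: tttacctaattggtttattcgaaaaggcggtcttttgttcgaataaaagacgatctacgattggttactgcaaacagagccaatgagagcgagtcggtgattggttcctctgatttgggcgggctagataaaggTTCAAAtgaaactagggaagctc
Within 250 bases before the start and on either strand, TTTGAA was found in 16 of the 45 fallen mitosis genes with a promoter (35.6%), against 802 of all 8086 promoters (9.92%) and 160 of the 1712 promoters of all fallen genes (9.35%). CCAAT, which often accompanies it, was found in 29 of the 45 (64.4%) against 36.3% of all promoters. That share was not particular to these genes. CCAAT stood in 59.3% of fallen replication promoters and in 7 of the 12 risen arrest genes (58.3%). For the amino acid and endoplasmic reticulum stress genes described below, it stood in 52.2% of fallen and 75% of risen members. Over all fallen and all risen genes the shares were 39.1% and 36.4%, and over all risen p53 targets 39.0%. Kif2c, a microtubule-destabilising kinesin gene, fell from 22.7, 36.6 and 22.6 CPM to 2.64, 7.70 and 2.45 CPM (log2 -2.53). Ncapg, a condensin gene, fell from 23.4, 37.7 and 22.8 CPM to 3.12, 10.0 and 2.34 CPM (log2 -2.40). Both are named for their promoters, and again treated replicate 2 was the highest of the treated libraries.

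**Figure D2:**
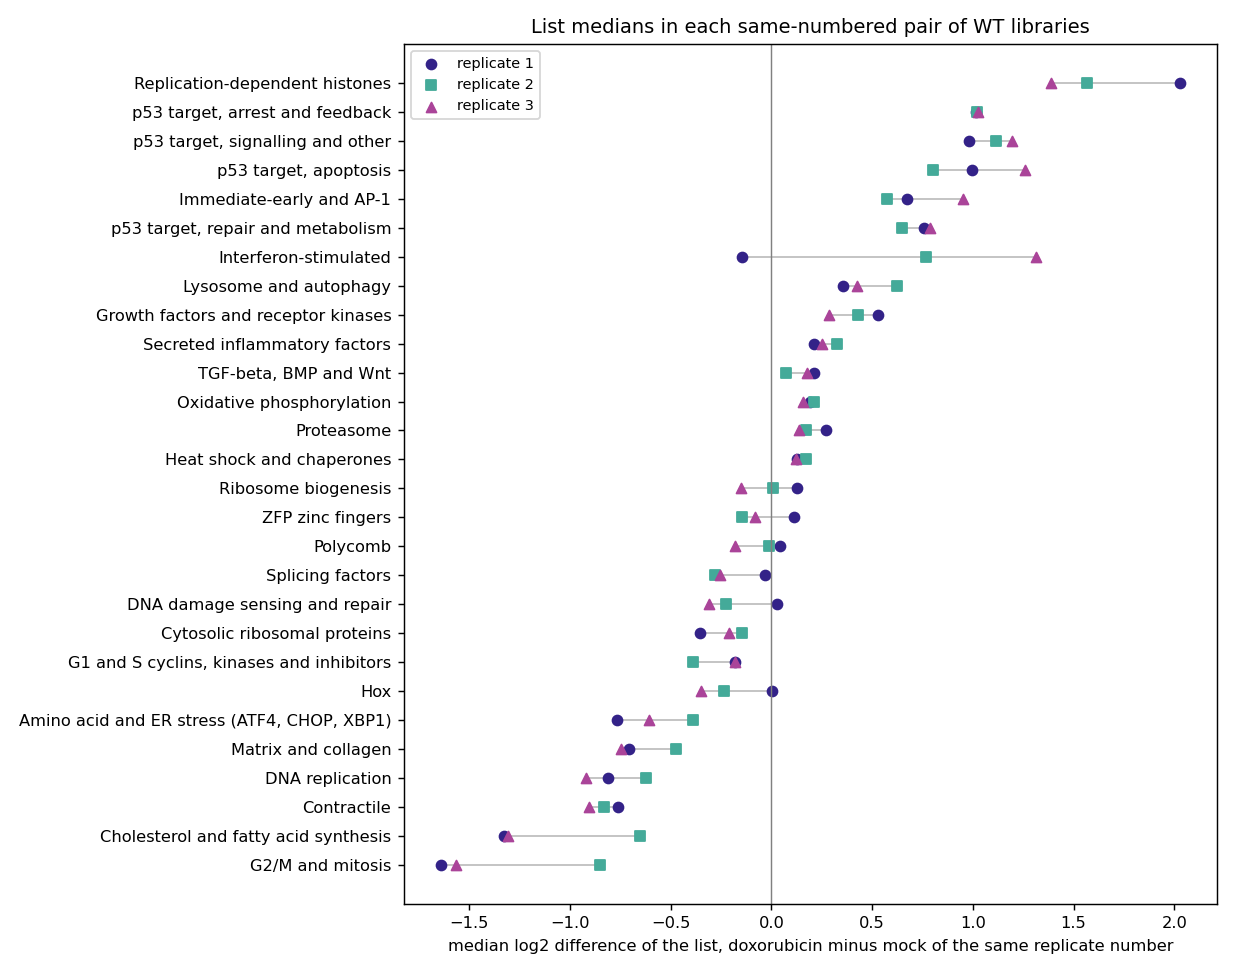
Median log2 difference (doxorubicin minus mock) of each gene list within replicate 1, 2 or 3 of the WT libraries, in the order of the lists' medians, with a grey line over the range of the 3 pairs. Mitosis genes were lower in every pair (-1.64, -0.85 and -1.56), whereas interferon-stimulated genes ranged from -0.15 to 1.31.

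DNA replication genes fell with the mitosis genes. Of 54 measured 30 fell (55.6%) and 6 rose (2 with median centring), with a median of -0.73, and 11 more were listed in mock only. Uhrf1, which maintains DNA methylation at the fork, went from 43.6, 58.0 and 45.0 CPM to 5.41, 11.1 and 3.67 CPM (log2 -2.79, SE 0.34, adjusted p = 9.83e-05). The helicase subunit genes Mcm5, Mcm3 and Mcm2 fell by 2.38, 2.12 and 2.05 on the log2 scale. Pcna, the sliding clamp, was at 69.1, 90.0 and 65.0 CPM in mock and at 35.1, 87.7 and 26.1 CPM after doxorubicin, where treated replicate 2 lay within the mock range, and it did not pass (adjusted p = 0.118, or 0.00683 with the replicate block). The count of rises was 3 instead of 6 when mock replicate 1, mock replicate 3 or treated replicate 2 was left out.

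Regulators of G1 and S phase moved in both directions. Of 29 measured 10 fell (34.5%) and 4 rose, with a median of -0.26 (-0.17 without mock replicate 2). Cks1b, a CDK-binding subunit, fell from 55.5 ± 9.30 to 18.8 ± 6.16 CPM (log2 -1.55). Skp2, the ligase subunit that degrades the inhibitor p27, fell by 1.45 on the log2 scale and Cdk2 by 1.20. Skp2 overlaps Lmbrd2 and Cdk2 overlaps Pmel, each on the other strand. Rb1, which encodes the retinoblastoma protein, rose from 23.7, 23.5 and 28.7 CPM to 118, 113 and 163 CPM (log2 2.32, SE 0.15, adjusted p = 4.06e-06). The treated libraries lay several times above the mock libraries, though Rb1 overlaps Lpar6 and Rcbtb2 on the other strand. Cdkn1c, the gene of the CDK inhibitor p57, rose by log2 2.16, from 18.9 ± 8.81 to 85.02 ± 26.5 CPM. The inhibitor genes Cdkn2a and Cdkn2b, linked to lasting arrest, did not pass (log2 -0.34 and -0.20, adjusted p = 0.603 and 0.558), nor did Ccnd1, which encodes cyclin D1 (log2 0.41, adjusted p = 0.156). With the replicate block Cdkn2a and Ccnd1 passed (adjusted p = 0.0459 and 0.0473) and Cdkn2b did not (0.371).

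The few measured histone genes that are normally expressed in S phase were mostly higher in the treated cells. Of the 62 replication-dependent histone genes on the list 8 were measured in both treatments. Of these 7 rose (87.5%, against 25.9% of all genes). A further 8 were listed after doxorubicin only, and 46 were listed for neither treatment. Hist1h4i rose from 2.93, 3.61 and 3.82 CPM to 35.2, 36.1 and 34.1 CPM (log2 3.03, SE 0.16, adjusted p = 1.87e-06), with little spread among the treated libraries. Hist1h3b rose by 2.37, Hist1h2be by 2.20 and Hist3h2a by 1.96. These RNAs lack poly(A) tails when they come from S-phase transcription and were measured in mRNA libraries, and near-identical copies of the genes make the assignment of reads uncertain. Of 64 genes of damage sensing and repair, 12 rose (18.8%) and 17 fell (26.6%), against 25.9% and 21.4% of all genes. With median centring 8 rose and 27 fell. The list median was -0.20, and 15 more members were listed in mock only. Rad18, Parp1 and Brca1 fell by 1.65, 1.36 and 1.35 on the log2 scale, while the mismatch repair gene Msh6 rose by 2.23 and Top3a by 1.56. Msh6 overlaps Fbxo11 on the other strand.

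The 12 largest called rises on the log2 scale came from genes with low levels in mock cells, most of them membrane or secreted proteins. Sbsn, which encodes the epidermal protein suprabasin, went from 2.09, 2.20 and 2.89 CPM to 237, 124 and 367 CPM (log2 6.04, SE 0.42, adjusted p = 6.24e-06). The mock libraries were all just above the 2 CPM at which genes were listed, and every treated library was above 100 CPM. Slc4a11, a membrane transporter gene, rose from 3.07, 3.36 and 4.92 CPM to 246, 230 and 352 CPM (log2 5.85). Icam1, the adhesion receptor for leukocytes, rose from 5.72, 2.71 and 5.21 CPM to 140, 161 and 360 CPM (log2 5.23, SE 0.49). For both genes the groups stood far apart, with treated replicate 3 the highest library. Mmp15, a membrane-bound metalloprotease gene, rose by log2 5.15, Vnn1, a pantetheinase gene, by 4.88, Procr, the receptor of protein C, by 4.30 and Scube3 by 4.26. Sncg (gamma-synuclein) rose by 4.22, the potassium channel gene Kcnj4 by 4.21, the vitamin transporter gene Slc5a6 by 4.15 and the lysosomal peptide transporter gene Abcb9 by 4.11. Slc5a6 overlaps Atraid on the other strand.

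**Figure D3:**
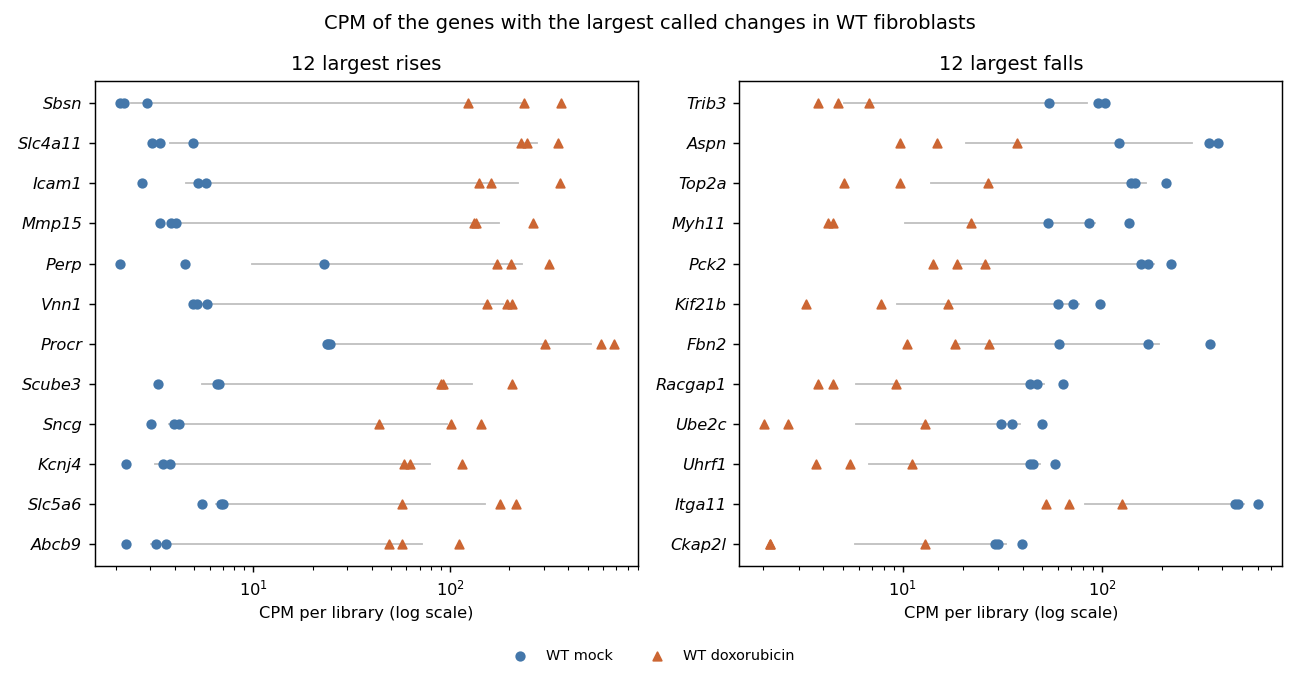
CPM in each WT library (log axis) of the 12 called genes with the largest log2 rise (left) and the 12 with the largest fall (right), with mock libraries as circles, treated libraries as triangles and a grey line between the group means. The 2 groups do not overlap for any of the 24 genes, as the rule that chose them required.

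In mean CPM, the 5 largest called gains were those of Ctsd, Man2b1, Pcyox1, Serpine2 and TGOLN2. Ctsd, which encodes the lysosomal protease cathepsin D, rose from 2000, 1395 and 1670 CPM to 5130, 4062 and 4561 CPM (log2 1.45, adjusted p = 0.000126). Man2b1, lysosomal alpha-mannosidase, rose from 151, 106 and 145 CPM to 2052, 1319 and 2821 CPM (log2 3.88, SE 0.28, adjusted p = 8.00e-06). Neither gene's groups overlapped. Pcyox1, a lysosomal prenylcysteine oxidase gene, rose from 196 ± 14.8 to 1969 ± 657 CPM, Serpine2, a secreted protease inhibitor gene, from 110 ± 34.9 to 1203 ± 142 CPM, and the trans-Golgi gene TGOLN2 from 243 ± 7.60 to 1258 ± 268 CPM.

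Lysosome and autophagy genes mostly rose. Of 62 measured 34 rose (54.8%, against 25.9% of all genes) and 5 fell, with a median of 0.43. The falls were 8 with the replicate block and 2 or 3 when any 1 WT library was left out. Summed over the list, the level was 18497, 14335 and 16565 CPM in mock and 29356, 25952 and 28008 CPM after doxorubicin, so the groups did not overlap. Ctsf, which encodes cathepsin F, rose from 33.4, 19.7 and 34.3 CPM to 254, 202 and 324 CPM (log2 3.13). Ulk1, the kinase that starts autophagy, rose from 57.4, 56.4 and 55.7 CPM to 214, 258 and 313 CPM (log2 2.18), and Tpp1, a lysosomal peptidase gene, rose by log2 1.497. Glb1, the lysosomal beta-galactosidase gene whose activity is used to stain senescent cells, did not pass and had overlapping groups (log2 0.04, adjusted p = 0.877).

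Early-response transcription factors were raised at 24 hours. Of 31 immediate-early and AP-1 genes 15 rose (48.4%) and 1 fell (22 and 5 with the replicate block, 15 and 4 with median centring), with a median of 0.91. Fos went from 8.17, 7.42 and 5.90 CPM to 43.9, 64.2 and 63.5 CPM (log2 2.82, SE 0.25, adjusted p = 2.15e-05). Nr4a3 rose by log2 2.40, Fosb by 2.19 and Fosl1 by 2.15, all factors that bind DNA at stimulus-responsive genes. Fosl1 overlaps Ccdc85b on the other strand. Klf2 fell, from 17.5 ± 1.43 to 7.28 ± 1.59 CPM (log2 -1.18). Of 35 secreted and inflammatory genes, a list of factors associated with senescence, 9 rose (25.7%, near the 25.9% of all genes) and 2 fell, or 14 and 6 with the block. The median of 0.31 was 0.10 without mock replicate 1 and 0.13 without treated replicate 2. Besides Icam1, Tnfaip3, an inhibitor of NF-kappaB, rose by 2.55, the cytokine gene Lif by 2.27 and the EGF receptor ligand gene Ereg by 1.92. Il6 was low in both groups and rose from 2.86, 3.46 and 4.11 CPM to 10.4, 12.6 and 5.79 CPM (log2 1.19, adjusted p = 0.00333; named for its place in this programme). Cxcl12, a chemokine gene of stromal cells, fell from 317, 282 and 816 CPM to 66.4, 72.1 and 56.5 CPM (log2 -2.67), and Igfbp5 from 1223, 1022 and 547 CPM to 105, 281 and 102 CPM (log2 -2.60). Ptgs2, the inducible cyclooxygenase gene, did not pass (log2 1.47, adjusted p = 0.0916), but it passed with the replicate block (3.92e-05), and its differences in the 3 pairs were 1.57, 1.34 and 1.51.

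Interferon-stimulated genes depended on which mock library they were set against. Of 37 measured 10 rose (27.0%, near the 25.9% of all genes) and 0 fell, with a median of 0.62, and 13 more were listed after doxorubicin only. The summed level was 3427, 1707 and 1342 CPM in mock and 3638, 3250 and 3242 CPM after doxorubicin, so mock replicate 1 was near the treated libraries. By pair the median was -0.15, 0.77 and 1.31. Without mock replicate 1, 21 members rose and the median was 1.07. The count was 6 without mock replicate 2, 5 without mock replicate 3 (median 0.36) and 6 without treated replicate 1, and it was 18 with the replicate block. Ifi35 rose from 37.4, 21.4 and 16.6 CPM to 85.03, 66.2 and 114 CPM (log2 1.82, adjusted p = 0.000873). Irf7, an inducer of interferon genes, showed the same uneven mock level at 43.6, 10.7 and 3.24 CPM against 57.3, 68.7 and 28.5 CPM, so its groups overlapped. Its adjusted p of 0.0464 became 0.104, 0.178, 0.107 and 0.128 without mock replicate 2, mock replicate 3, treated replicate 1 and treated replicate 2. On the other strand Irf7 overlaps the gene Phrf1.

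Genes of the extracellular matrix fell, and they held a large share of the RNA. Of 68 measured 32 fell (47.1%, against 21.4% of all genes) and 5 rose, with a median of -0.64. Summed, they made up 139167, 123416 and 140117 CPM in mock, 13.4% of the reads on average, and 83918, 71723 and 77780 CPM after doxorubicin, or 7.78%. Col1a1 and Col1a2, the chains of type I collagen, were at 16817 ± 1848 and 11121 ± 1644 CPM in mock and at 7516 ± 654 and 4211 ± 691 CPM after the drug (log2 -1.16 and -1.40, adjusted p = 0.000905 and 0.000880). With quantile normalization, which forces the top ranks of every library to equal values, Col1a1 did not pass (log2 -0.08, adjusted p = 0.703). Thbs1 went from 17128, 17437 and 17330 CPM to 8138, 6162 and 5981 CPM (log2 -1.37), with almost no spread in mock. Col5a1 fell from 4262 ± 629 to 1418 ± 69.7 CPM.

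The falls within the matrix list differed in size and in steadiness. Aspn, which encodes asporin, fell from 379, 122 and 342 CPM to 9.65, 14.9 and 37.3 CPM (log2 -3.76, SE 0.91, adjusted p = 0.00579), and overlaps Cenpp on the other strand. Fbn2 (fibrillin 2) fell from 169, 60.4 and 347 CPM to 27.1, 10.5 and 18.3 CPM (log2 -3.06, SE 1.05, adjusted p = 0.0330). It did not pass without mock replicate 1 or 3 or treated replicate 2 or 3 (adjusted p = 0.0775, 0.112, 0.0952 and 0.0731). Mfap2, a microfibril gene, fell by 2.46 on the log2 scale. Col18a1, a basement membrane collagen gene, rose instead, from 213, 151 and 221 CPM to 880, 594 and 1073 CPM (log2 2.09), as did Plod2, a collagen lysyl hydroxylase gene (log2 1.73). Col18a1 overlaps Slc19a1 on the other strand. Fn1, which encodes fibronectin, had treated libraries all below the mock libraries but did not pass (log2 -0.44, adjusted p = 0.140, or 0.0179 with the replicate block). Itga11, a collagen-binding integrin gene, fell from 601, 463 and 476 CPM to 51.9, 125 and 68.4 CPM (log2 -2.72).

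Contractile genes of myofibroblasts and smooth muscle fell too. Of 30 measured 19 fell (63.3%) and 1 rose, with a median of -0.80. Their summed level was 38162, 47452 and 32073 CPM in mock and 23062, 28054 and 16317 CPM after doxorubicin, and the groups did not overlap. Acta2, smooth muscle actin, fell from 7404, 8586 and 5890 CPM to 2033, 4377 and 1634 CPM (log2 -1.56, adjusted p = 0.00318). Myh11, smooth muscle myosin, fell from 86.2, 136 and 53.4 CPM to 4.44, 22.1 and 4.23 CPM (log2 -3.32). In both genes replicate 2 was the highest library within each group. Mylk, whose kinase phosphorylates myosin light chains, fell by 2.13, Lmod1 by 2.08 and Ankrd1 by 2.02 on the log2 scale. The riser was Des (desmin), by log2 1.58 (adjusted p = 0.0348), which did not pass without mock replicate 3 or treated replicate 1 or 2 (0.111, 0.0907 and 0.0982).

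**Figure D4:**
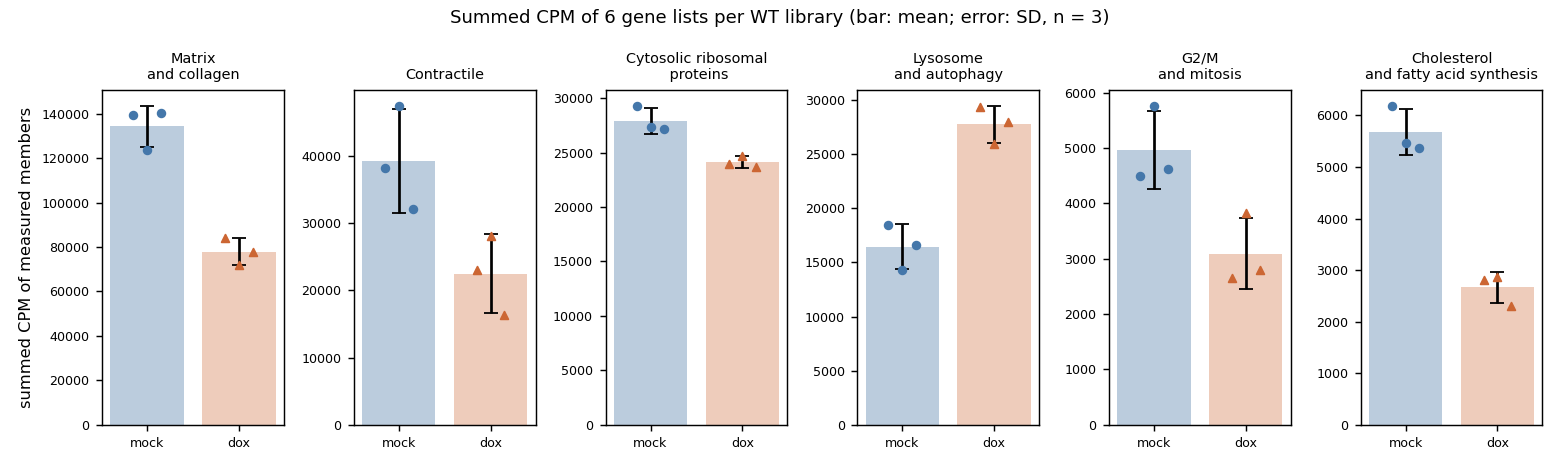
Summed CPM of the measured members of 6 gene lists in each WT library, with bars at the mean and error bars of 1 SD (n = 3), mock in blue circles and doxorubicin in orange triangles. In every panel the 3 treated libraries lie on one side of the 3 mock libraries, as for the matrix list at 71723 to 83918 CPM against 123416 to 140117 CPM.

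Sterol synthesis genes fell almost throughout. Of 35 genes of cholesterol and fatty acid synthesis and uptake 26 fell (74.3%), 1 rose and 8 did not pass, with a median of -1.17. Insig1, a sensor protein that retains the regulator SREBP in the endoplasmic reticulum, went from 142, 98.4 and 140 CPM to 21.9, 27.2 and 17.5 CPM (log2 -2.47). All treated libraries lay far below all mock libraries. Fdps, an enzyme of the pathway, fell by 2.24 on the log2 scale. The riser was Acss2, an acetyl-CoA synthetase gene, by log2 1.89 (8.53 ± 2.75 to 36.5 ± 20.3 CPM), which overlaps Ggt7 and Gss on the other strand. Srebf2, which encodes the SREBP of cholesterol synthesis, is named for that role and fell by 1.57 on the log2 scale.

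Targets of the amino acid and endoplasmic reticulum stress factors ATF4, CHOP and XBP1 fell more often than they rose. Of 50 measured 28 fell (56.0%) and 8 rose, with a median of -0.59. The rises were 5 with median centring, 5 without mock replicate 2 or treated replicate 2 and 4 without treated replicate 3. Trib3, a pseudokinase gene induced by ATF4, went from 103, 53.8 and 95.1 CPM to 6.73, 3.75 and 4.73 CPM (log2 -3.78, SE 0.32, adjusted p = 1.93e-05), the largest fall of any gene under the naming rule. Asns, asparagine synthetase, went from 202, 204 and 188 CPM to 41.9, 55.1 and 37.1 CPM (log2 -2.14). Mthfd2, of mitochondrial folate metabolism, fell by 2.47 and Atf5 by 2.09 on the log2 scale. Atf5 overlaps Il4i1 and Nup62 on the other strand. Atf4, named as the factor itself, fell from 380, 337 and 311 CPM to 172, 147 and 133 CPM (log2 -1.19, adjusted p = 4.74e-05), whereas Ddit3, which encodes CHOP, did not pass (log2 -0.41, adjusted p = 0.339). Ern1, the sensor kinase IRE1, rose by log2 1.83 and Ppp1r15a, a phosphatase subunit gene that restores translation, by 1.38. Ppp1r15a overlaps Tulp2 on the other strand.

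Promoters of 4 fallen genes of this list are shown because they hold TGATGCAA, the composite element bound by ATF4 with C/EBP factors, a motif added to the search after the fall of the list had been seen. Its reverse complement TTGCATCA is in capitals. The stretches are Aars (chr8:111033705-111033772, plus strand), Herpud1 (chr8:94386292-94386359, plus strand), Nupr1 (chr7:126625538-126625605, minus strand) and Tars (chr15:11399659-11399698, minus strand), again RefSeq on GRCm38.p6.
Aars: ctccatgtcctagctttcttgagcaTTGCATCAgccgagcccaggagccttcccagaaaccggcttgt
Herpud1: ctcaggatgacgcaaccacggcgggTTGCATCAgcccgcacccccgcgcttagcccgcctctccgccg
Nupr1: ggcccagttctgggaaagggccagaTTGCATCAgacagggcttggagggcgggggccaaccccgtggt
Tars: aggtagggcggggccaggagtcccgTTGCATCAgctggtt
The element was found on either strand in 4 of the 23 fallen members with a promoter (17.4%) and in 0 of the 8 risen ones, against 35 of all 8086 promoters (0.433%). Aars, which encodes alanyl-tRNA synthetase, fell from 545, 492 and 583 CPM to 195, 176 and 158 CPM (log2 -1.61), and Tars, threonyl-tRNA synthetase, from 231, 287 and 241 CPM to 116, 111 and 84.4 CPM (log2 -1.28). Herpud1, of protein quality control, fell by 1.43 and Nupr1, a stress-induced nuclear protein gene, by 1.30 on the log2 scale. These 4 genes are named for their promoters, and in each the treated libraries all lay below the mock libraries.

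Genes of protein synthesis moved by small amounts. Of 74 cytosolic ribosomal protein genes 29 fell (39.2%; 19 without mock replicate 1) and 1 rose, with a median of -0.25, and their summed level was 27169 to 29320 CPM in mock and 23669 to 24729 CPM after doxorubicin. Rpl3 fell from 485, 496 and 484 CPM to 245, 275 and 227 CPM (log2 -0.97, adjusted p = 5.17e-05), Rpl22l1 by 1.41, Rpl10a by 0.70 and Rpl5 by 0.65 on the log2 scale. Processed copies of these genes can take or share their reads. In addition, Rpl3 overlaps Syngr1 and Rpl5 overlaps Fam69a, each on the other strand. Ribosome biogenesis genes had 13 of 65 higher and 11 lower in the main fit, shares below the 25.9% and 21.4% of all genes. Their median was 0.00, or -0.11 under quantile normalization and under median centring. The falls were 20 with the replicate block, 19 with median centring and 7 without mock replicate 2, mock replicate 3 or treated replicate 3. Rrp9 rose by log2 1.96 and the RNA polymerase I subunit gene Polr1e by 1.46, whereas Tcof1 and Nob1 fell by 0.95 and 0.91. Both risers lie over genes on the other strand, Rrp9 over Parp3 and Polr1e over Fbxo10. Splicing factors had 25 of 79 lower (31.6%; 14, 15 and 14 without mock replicate 2, mock replicate 3 and treated replicate 3) and 9 higher (18 with the block). Sfrs1 and Hnrnpa2b1 fell by 0.88 and 0.82, and Prpf6 and Prpf8 rose by 0.84 and 0.71. Prpf6 overlaps Samd10 and Zfp512b on the other strand.

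Genes of mitochondrial respiration and the proteasome had small differences, and many did not pass. Of 74 oxidative phosphorylation genes 29 rose (39.2%), 37 did not pass and 8 fell (13 with the block, 14 with median centring and 5 without mock replicate 1, mock replicate 3 or treated replicate 3), with a median of 0.16 that was 0.05 with median centring. Cox4i1, a subunit of cytochrome c oxidase, went from 312, 271 and 289 CPM to 586, 579 and 635 CPM (log2 1.05, adjusted p = 2.62e-05). Ndufb6 and Ndufa11, of complex I, rose by 1.67 and 1.50, and Cycs, which encodes cytochrome c, by 1.08. On the other strand Cox4i1 overlaps Emc8, Ndufb6 overlaps Smim27 and Ndufa11 overlaps Vmac. Of 39 proteasome genes 15 rose (38.5%) and 1 fell, or 9 and 2 with median centring, and 23 did not pass. The proteasome median was 0.16, or 0.05 with median centring. Psme2, of the immune activator, rose by log2 1.48 and the ATPase gene Psmc3 by 0.99. Psmc3 overlaps Slc39a13 on the other strand. Of 41 heat shock and chaperone genes 11 rose (26.8%, near the 25.9% of all genes) and 3 fell (7.32%, against 21.4%). The counts were 16 and 6 with the block and 9 and 5 with median centring. The median of 0.11 was 0.00 with median centring, -0.03 without treated replicate 2, 0.07 and 0.22 without mock replicates 1 and 2 and 0.19 without treated replicate 1. Dnajb9, a partner of the chaperone BiP, rose from 30.7, 30.9 and 29.2 CPM to 91.3, 193 and 138 CPM (log2 2.12), and Dnajb1 by 1.86. Hspa1b rose by 1.90, but Hspa1a, listed after doxorubicin only at 10.9 CPM, is a near-identical copy with which it can share reads.

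Members of the signalling lists changed in both directions. Of 44 growth factor and receptor kinase genes 16 rose (36.4%, against 25.9% of all genes) and 10 fell (22.7%, near the 21.4% of all genes). The groups did not overlap for 16 and 13, where 29.4% and 25.3% of all genes did not. Pdgfrb, the PDGF receptor of fibroblasts, fell from 642, 522 and 651 CPM to 133, 83.4 and 86.6 CPM (log2 -2.60, SE 0.26, adjusted p = 3.75e-05). Epha3 fell by 2.45 on the log2 scale, whereas its relative Epha2 rose from 42.4, 76.1 and 45.7 CPM to 251, 459 and 310 CPM (log2 2.62). The ligand genes Gdnf, a neurotrophic factor, and Efna1, an ephrin, rose by 3.36 and 3.04. Of 67 genes of TGF-beta, BMP and Wnt signalling 19 rose (28.4%) and 11 fell (16.4%), shares near the 25.9% and 21.4% of all genes (29 and 21 with the block; 7 falls without mock replicate 3 or treated replicate 3). Wnt4 rose from 4.47, 2.15 and 6.60 CPM to 45.0, 44.3 and 82.6 CPM (log2 3.46, adjusted p = 0.000530), Wnt9a by 2.21 and the BMP target Id2 by 2.38, while Wisp1, a secreted Wnt-induced protein gene, fell by 1.59 and the Wnt receptor gene Fzd2 by 1.13.

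Chromatin and patterning genes showed no common direction. Of 31 Polycomb component genes 6 rose (19.4%) and 5 fell (16.1%), against 25.9% and 21.4% of all genes. With the block 7 rose and 10 fell, and the median of -0.04 was 0.03 without treated replicate 3. Eed, a core subunit of PRC2, rose from 39.0, 44.4 and 47.3 CPM to 90.0, 80.8 and 109 CPM (log2 1.08). Scmh1 rose by 0.97 and Rnf2, the catalytic subunit of PRC1, by 0.74, while Cbx6 fell by 0.87 on the log2 scale. Rnf2 overlaps Trmt1l on the other strand. Of 23 Hox genes 4 rose (17.4%) and 5 fell (21.7%, near the share of all genes), or 8 and 8 with the block. The falls ranged from 1 to 5 when 1 library was left out. They were 2, 3 and 1 without mock replicates 1, 2 and 3, and 2 and 3 without treated replicates 2 and 3. Hoxb2 fell from 23.5, 25.7 and 22.2 CPM to 10.5, 2.97 and 6.12 CPM (log2 -1.85, adjusted p = 0.00184) and Hoxd11 rose by log2 0.96. Of 237 ZFP zinc finger genes 48 rose (20.3%) and 44 fell (18.6%; 29 without treated replicate 2 or 3), close to the shares of all genes. Zfp707 rose from 6.14, 5.21 and 6.08 CPM to 84.1, 74.6 and 116 CPM (log2 3.74).

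Some genes were listed for a single treatment. Every gene of a table exceeds 2 CPM in all WT libraries of that table, so a gene not listed in the other table may have been at or under that level in a WT library there, but this cannot be seen for an unlisted row and no fold is given. Of 356 rows in the mock table only, 60 had a WT mean of at least 10 CPM, of which 19 belonged to the mitosis list and 7 to the replication list. The highest were Kif11, the spindle motor (33.7, 50.9 and 35.8 CPM), Eln, which encodes elastin (40.8, 26.6 and 34.8 CPM), and Hhipl1 (39.2, 31.1 and 30.1 CPM). Cyclin B2 (Ccnb2) was at 27.5 ± 4.06, the spindle gene Dlgap5 at 26.9 ± 6.48 and thymidine kinase (Tk1) at 25.1 ± 4.12 CPM. Pgm5 was uneven, at 42.2, 6.16 and 30.8 CPM, and Rspo2, which encodes a Wnt agonist, was high in replicate 3 only, at 6.84, 2.76 and 67.6 CPM.

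The doxorubicin table had 833 rows of its own, 274 of them with a WT mean of at least 10 CPM. St14, the epithelial surface protease matriptase, was at 205, 175 and 336 CPM, Matn4, a matrix protein gene, at 163, 86.7 and 406 CPM, and Itgb4, an integrin subunit of hemidesmosomes, at 120, 99.6 and 181 CPM. Aldh1l1, Cyp27a1, Jag2 and Tbc1d8 had means of 121, 120, 109 and 98.1 CPM. Ucp2, a mitochondrial carrier gene, was uneven, at 210, 193 and 3.51 CPM. Members of the lists among these rows included 8 interferon-stimulated genes, such as Usp18 (82.0 ± 17.6 CPM), 5 secreted factors, such as Cxcl16 at 44.1 CPM, and the p53 targets Gls2 (36.9 CPM) and Tnfrsf18 (12.1 CPM). The last 4 genes were chosen after their values were seen. Of the 274 rows, 0 belonged to the mitosis, replication or repair lists.

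Genes of longer genomic span had lower median differences, given here as a description without a test. With 9981 matched genes split into 5 equal groups by span, the median log2 difference was 0.09 in the shortest group (up to 8.89 kb) and -0.14 in the longest (71.8 kb and more), a gap of -0.22. In the same order the share of genes that rose went from 28.7 to 19.4% and the share that fell from 17.1 to 27.0%. The gap was -0.12, -0.24 and -0.27 in the pairs of replicates 1, 2 and 3. Without the ZFP genes it was -0.22 and without the mitosis and replication lists -0.23, as large as with them. Median levels in mock were 30.1 CPM in the shortest and 40.2 CPM in the longest group, and counts per gene are not scaled to length. The spans come from RefSeq on GRCm38.p6.

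**Figure D5:**
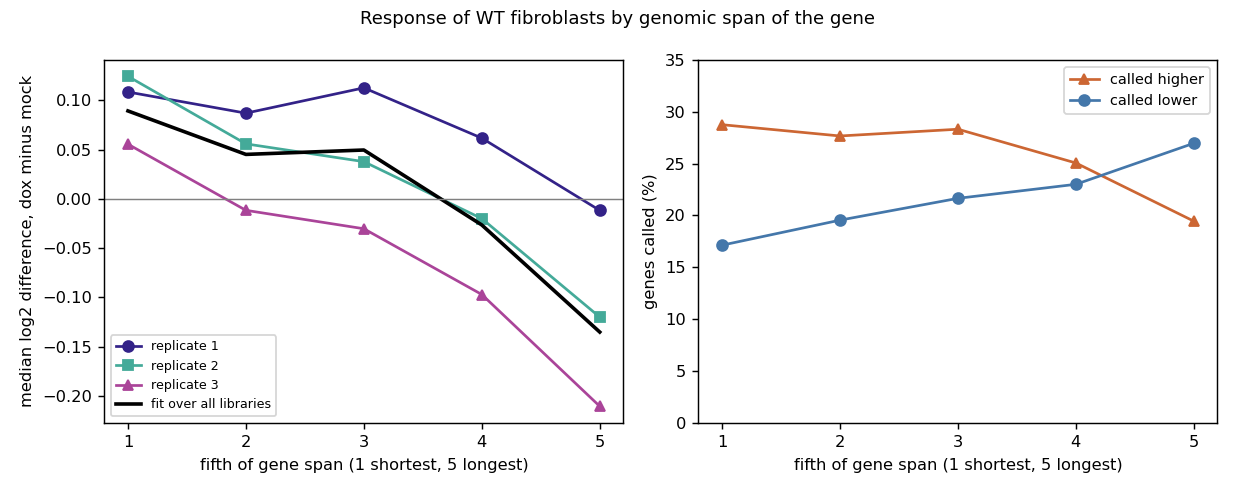
Left, median log2 difference (doxorubicin minus mock) in WT fibroblasts in 5 groups of rising gene span, for each same-numbered pair of libraries and for the fit. Right, the percentage of genes called higher and called lower in each group, where the share called lower rises from 17.1 to 27.0% from the shortest to the longest genes.

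The same contrast in lincRNA-p21 knockout cells allowed the WT response to be tested for a difference between genotypes. By the interaction term of limma, 0 of 10292 genes were called, while 468 genes had an unadjusted p under 0.05, and the lowest adjusted p was 0.922. The replicate block also gave 0 calls, 1610 genes at an unadjusted p under 0.05, and 0.171 as its lowest adjusted p. No gene of the WT response is therefore shown to be particular to WT cells, nor shown to respond alike in both. For Cdkn1a the log2 rise was 1.15 in WT and 1.78 in knockout cells, an interaction of -0.63 (unadjusted p = 0.00518, adjusted p = 0.922). For Thbs1 the values were -1.37 and -0.51, with the same adjusted p. The list medians in WT and knockout cells were -1.33 and -2.07 for mitosis genes, 1.13 and 0.99 for arrest targets of p53, and -1.17 and -1.21 for sterol genes, given as values without a test.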

How the data were processed

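RNA-seq of 12 libraries was used, in 4 groups of 3 (WT or lincRNA-p21 knockout, mock or 0.5 mM doxorubicin for 24 hours). The authors deposited CPM per gene in 2 tables, one per treatment. HTSeq, edgeR, TopHat2 2.0.6 and the assembly NCBIM37 appear, without role or order, per the submitters' processing notes, and per the labels' protocols the libraries were stranded mRNA libraries. Each library's values were whole multiples of 1 read over its total (100% within 0.001 of a read), which gave the depths; tests ran on the deposited CPM, so the count tests and the TMM scaling planned as alternatives were not run.

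The model was fitted with lmFit and eBayes (trend) of limma 3.58.1, under R 4.3.3, on log2(CPM + 1) over the 10292 genes in both tables, with all 12 libraries in 4 groups (8 residual degrees of freedom) and p-values adjusted by Benjamini-Hochberg to a threshold of 0.05. That scale understates fold changes of low genes, and the script was tested on simulated data. Same-numbered mock and treated WT libraries deviated together from their group means (correlations across genes of 0.394 to 0.517). The numbers were therefore used as pairs in the differences by pair and in the block alternatives. The main fit, which gave the calls, used group means only and left this pairing out. Different numbers gave at most -0.143. Deviations within a group cancel out, so positive same-number values push those of different numbers down, and the latter are no separate support. The block alternative adds the replicate number to the fit of all 12 libraries, so WT and knockout libraries of the same number share a common effect. The labels do not say whether numbers match across genotypes, and this was not checked. A further alternative puts the block on the 6 WT libraries alone. Of the names in the files, 9833 matched RefSeq symbols, 1215 synonyms and 433 neither; overlaps of genes come from GENCODE on GRCm38. LincRNA-p21 itself was not analysed here, and some genes of the lists are not reported here by name.

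Named genes are Cdkn1a, Trp53, Mdm2, the 12 largest called log2 differences each way with non-overlapping groups and at least 10 CPM, the 5 largest called CPM changes each way, up to 4 called members per list in its main direction and 2 in the other, and the 8 highest rows of each single table; members that did not pass may be named with values. Genes outside the rule are said to be named for a stated reason. The gene lists, members and tests were chosen with earlier results of these data known. Alternatives were another pseudocount (0.25), a filter at 5 CPM, quantile normalization, median centring, the replicate block, the 6 WT libraries alone without and with the block, and leaving out each WT library.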

Additional observations from a re-analysis of the deposited data

How the results depend on the processing

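The count of 4863 genes ranged from 3870 to 4822 when 1 WT library was left out, with 2276 to 2512 rises and 1594 to 2310 falls, and from 4230 (6 WT libraries alone) to 6556 (replicate block) in the other fits. Requiring a log2 difference of at least 1 left 1730 genes, 1091 higher and 639 lower, since fewer genes can pass. Raising the level for rows in a single table from 10 to 20 CPM left 16 of 60 in mock and 117 of 274 after doxorubicin. With the replicate block, which ties same-numbered libraries of both genotypes, 6556 genes were called, and the 174 genes named by rule kept their calls. With the block on the 6 WT libraries alone, 5489 genes were called, and 173 of the 174 kept their calls. The block over both genotypes added calls among genes described as not passing, whose blocked p-values stand beside them. It also raised the counts of most lists. The interaction count stayed at 0 in every fit run. Of 174 named genes, 157 kept their direction and call under every alternative, 17 lost the call under at least 1 and 0 reversed. Of 28 list medians 4 changed sign: ribosome biogenesis (0.00; -0.11 with quantile normalization, -0.11 with median centring and -0.11, -0.02 and -0.05 without mock replicate 1, treated replicate 1 and treated replicate 2), heat shock (0.11; 0.00 with centring, -0.03 without treated replicate 2), Polycomb (-0.04; 0.03 without treated replicate 3) and ZFP genes (-0.02; 0.02 without treated replicate 2). Where a library was left out, the fit pools the spread over the remaining groups. The edgeR, DESeq2 and TMM alternatives were not run because the tables hold CPM. The tables hold no gene at or under 2 CPM in a WT library, so rises from and falls to very low levels are limited to the rows of a single table.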

Other observations

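Genes known from epidermis and other epithelia were among the strongest rises, a pattern noticed after the values were seen and given without a test. Desmoplakin (Dsp) was at 6.53 ± 4.35 CPM in mock and 94.9 ± 36.9 CPM after doxorubicin, keratin 19 (Krt19) at 13.7 ± 6.66 and 168 ± 63.6 CPM, the laminin receptor subunit gene Itga6 at 56.5 ± 20.3 and 647 ± 271 CPM and the epithelial splicing regulator gene Esrp2 at 5.93 ± 1.74 and 71.4 ± 11.6 CPM. Others were listed after doxorubicin only, among them the cornified envelope genes Ivl (17.6 ± 7.32 CPM), Sprr1a (16.8 ± 6.17 CPM) and Lce1f (27.5 ± 15.4 CPM), trichohyalin (Tchh, 48.7 ± 26.7 CPM) and the epidermal transcription factor gene Grhl3 (16.9 ± 12.1 CPM). Of the 7 epithelial markers on the list, Krt18 alone was measured in both treatments, at 4.11 to 7.97 CPM in mock and 6.07 to 21.7 CPM after the drug, and 5 were in neither table.

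Enzymes of serine, one-carbon and amino acid metabolism, with Pck2 counted among them, were mostly lower after doxorubicin. This too was noticed after the values were seen. Of 17 such genes, all measured, 14 fell, 1 rose and 2 did not pass, where 21.4% of all genes fell. Their median log2 difference was -1.83. Pck2, mitochondrial phosphoenolpyruvate carboxykinase, fell from 221, 157 and 169 CPM to 25.7, 18.6 and 14.2 CPM, Shmt2 from 181 ± 18.6 to 52.3 ± 6.88 CPM, Aldh18a1, of proline synthesis, from 206 ± 11.7 to 42.6 ± 7.87 CPM and Bcat1 from 202 ± 27.97 to 35.5 ± 14.2 CPM. Mthfd1, of the cytosolic folate pathway, rose from 55.1 ± 9.59 to 160 ± 59.995 CPM. The ADAMTS genes, which encode secreted metalloproteases, were also grouped after the values were seen. Among 14 of them 10 were measured and 4 were listed for neither treatment. Of the 10, 7 fell and 1 rose, where 21.4% of all genes fell and 25.9% rose. Adamts5 was at 198 ± 63.7 CPM in mock and 43.2 ± 21.4 CPM after doxorubicin. Of 9 measured retinoid genes, grouped in the same way, 5 rose, 1 fell and 3 did not pass. Among them Rdh10 and Retsat were higher by log2 3.25 and 3.00. Cebpa, a regulator of fat cell differentiation and the largest rise among the marker lists, went from 9.21, 5.56 and 2.14 CPM to 54.7, 86.9 and 107 CPM.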
